A study of Mus musculus with 2 samples.

Results

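The EGF receptor family was examined here through 10 listed genes, which comprise the receptor genes Egfr, Erbb2 and Erbb3, the ligand genes Hbegf, Ereg, Areg, Tgfa, Btc and Nrg1, and the receptor inhibitor gene Errfi1. A member was every probe set whose single gene symbol in the array annotation was one of these names. This gave 21 probe sets for 9 genes, out of 18193 gene symbols on the array, and no probe set was named for Areg, which therefore has no value here. The genes were chosen with earlier results of these arrays known.

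The samples were fibroblasts (MEFs) grown from day 12.5 mouse embryos that were wild type or Ebp1 knock out, and total RNA was taken at passage 2 from cells in medium with 10% fetal bovine serum. The knock out carries a retroviral gene trap in the Pa2g4 gene, which encodes Ebp1, a protein named for its binding to ErbB3, and the line was kept on a mixed C57BL/6 and 129SvEvBrd background. Each genotype was measured on 1 array, so no value has an error, no test was possible and a difference between genotypes cannot be told apart from one between the 2 cultures. How many embryos were pooled in each culture is not stated. In such bulk RNA, fewer cells of a type and less RNA per cell cannot be told apart.

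The ErbB receptors are tyrosine kinases that work in pairs. EGFR binds HB-EGF, epiregulin, amphiregulin, TGF-alpha and betacellulin, ErbB3 binds neuregulins but has little kinase activity, and ErbB2 has no known ligand and serves as the partner of the others. The ligands are made as membrane proteins and are shed by metalloproteases, and the paired receptors signal through the Ras-ERK and PI3K-Akt pathways until they are inhibited, internalized and degraded. Fibroblasts are a classic responder to EGF.

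The values are MAS5 signals, a linear brightness per probe set that the authors scaled to 1 target for both arrays, and signals under 100 were treated as low. The targeted gene had the lower signal in knock out MEFs on all 5 of its probe sets, with log2 ratios (knock out over wild type, as throughout) from -0.90 to -0.33, and still reached 1178 on the brightest one. The gene trap leaves a fusion with the start of Ebp1, and the place of these probe sets relative to the insertion is not stated. Of the fibroblast markers, 9 of 9 reached 500 on at least 1 array, among them Vim (9308 in wild type MEFs and 11051 in the knock out) and Col1a1 (7401 and 7920.1), and Dcn (1275 and 419, log2 ratio -1.61) was over 2-fold lower. The 9 spike-in controls (probe sets of BioB, BioC, BioDn and CreX) were 1.31 times brighter on the knock out array at the median, so scaling to them would lower each log2 ratio by 0.39. They are controls of the hybridization and do not measure the RNA content of the cells.

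In Ebp1 knock out MEFs the signals of the ligand genes Hbegf and Ereg were over 2-fold higher, and that of the receptor gene Egfr was lower on its brightest probe set. The signal of Errfi1 was higher on both of its probe sets, the brightest of which turned just below 0 with spike-in scaling. Erbb2 had nearly the same signal on both arrays, and the other members were close to or under the low limit. With a minimum of 500 on at least 1 array, 4 members could be counted. Of these 2 were over 2-fold higher, against 0.758% of the 5014 genes that reached this minimum, and none was over 2-fold lower, against 1.06%. With a minimum of 100, 8 members could be counted with the same 2 higher and none lower, and the background was 1.58% higher and 1.93% lower over 10553 genes. Ereg passed the minimum of 500 on the knock out array only and Egfr on the wild type array only, and Btc and Nrg1 passed that of 100 on the knock out array only, so these counts are a description and do not rest on a test.

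**Figure D1:**
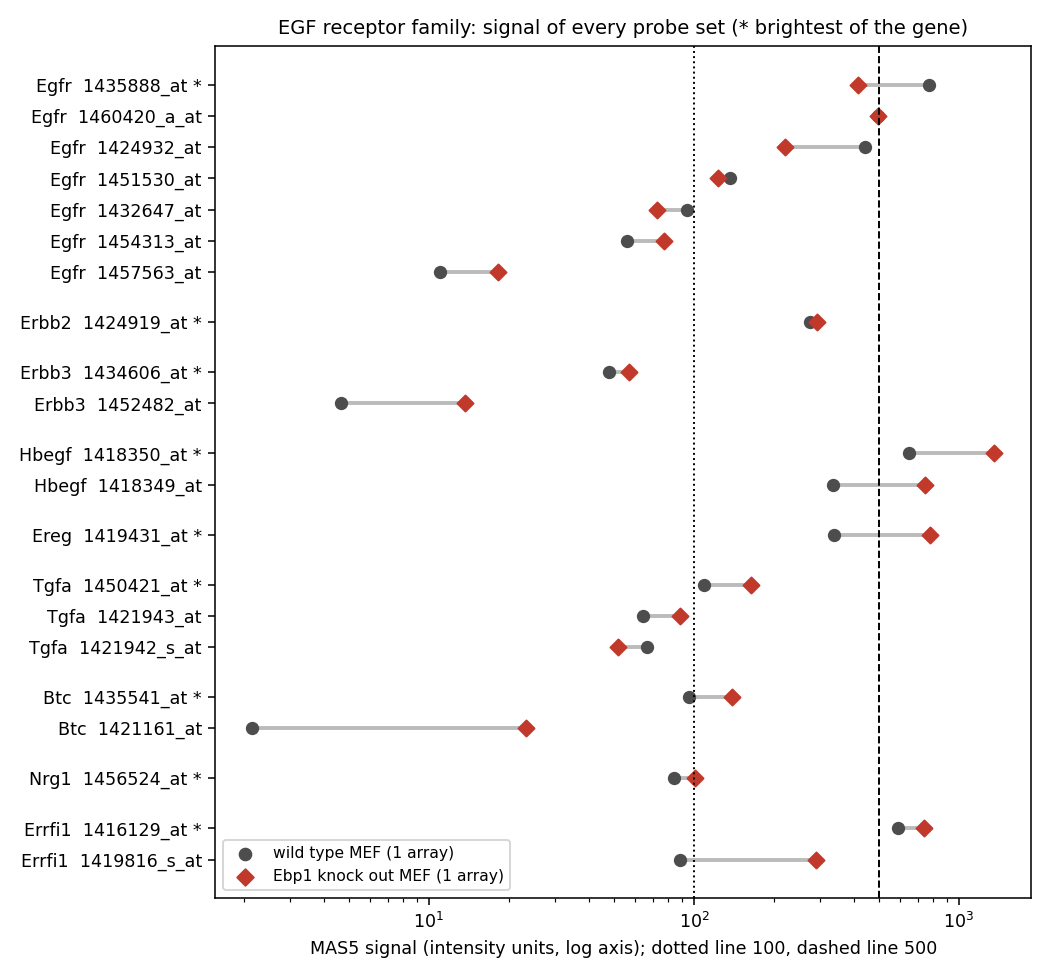
MAS5 signal of all 21 probe sets (log axis, intensity units) in wild type MEFs (grey circles) and Ebp1 knock out MEFs (red diamonds), 1 array each, with the brightest probe set of each gene marked by an asterisk. Both Hbegf pairs and the Ereg pair open to the right, those of 1435888_at and 1424932_at of Egfr open to the left, and 8 probe sets lie below the dotted line at 100 on both arrays.

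Hbegf encodes the heparin-binding member of the EGF ligands. Probe set 1418350_at read 645 in wild type MEFs and 1355 in the knock out, 2.10 times higher (log2 ratio 1.07). The second one, 1418349_at, read 334 and 743, or 2.23 times higher (1.15). Both were thus higher in the knock out MEFs, and their log2 ratios lay 0.08 apart. For comparison, the log2 ratios of probe sets of 1 gene spanned 0.38 at the median over the 3913 genes with at least 2 probe sets over the low limit on both arrays. These include genes with more than 2, and the median span was 0.60 over the 330 genes with 4. The value of 0.38 is therefore not matched to the 2 probe sets of Hbegf.

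Ereg, the gene of epiregulin, has a single probe set, 1419431_at, which read 339 in wild type MEFs against 774 in the knock out, 2.29 times higher (log2 ratio 1.19). It has no second probe set on the array that could be set beside it. Under the deposited scaling it had the largest log2 ratio among the members that reached 500.

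Tgfa, the gene of TGF-alpha, was dim. Its brightest probe set, 1450421_at, read 109 in wild type MEFs and 164 in the knock out (log2 ratio 0.58), within 2-fold. The other probe sets of Tgfa were under 100 on both arrays and pointed in opposite directions, with log2 ratios of 0.46 and -0.37.

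Btc, the gene of betacellulin, read 95.9 in wild type MEFs and 139 in the knock out on 1435541_at, at least 1.39-fold higher with the low signal set to 100. A dimmer Btc probe set read 2.16 and 23.2, under the low limit on both arrays, so no fold is given for it. Nrg1, the gene of neuregulin 1, had 84.4 and 101 on its only probe set, 1456524_at, at least 1.01-fold higher by the same bound. None of these 3 dim ligand genes was over 2-fold apart on its brightest probe set.

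Ereg, Areg and Btc lie in a row on the chromosome in the GRCm38.p6 annotation, next to Epgn, the gene of the related ligand epigen. Within this row only Ereg was over the low limit on both arrays, so whether the higher signal was shared cannot be judged. Epgn was under 100 on both arrays (61.1 and 53.9), Ereg was over 2-fold higher and Btc was dim. The flanking genes Mthfd2l (425 and 427, log2 ratio 0.00) and Parm1 (284 and 249, -0.18), named for their position, had nearly equal signals on both arrays.

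Egfr, the gene of the EGF receptor, read 771 in wild type MEFs and 416 in the knock out on its brightest probe set, 1435888_at (log2 ratio -0.89). The probe set 1424932_at gave 439.8 and 219.7, 2.00 times lower in knock out MEFs (-1.00). A pair of others did not share this difference, as 1460420_a_at gave 495 and 496 (0.00) and 1451530_at gave 136 and 123 (-0.14). The remaining 3 probe sets of Egfr were under 100 on both arrays, with log2 ratios of -0.37, 0.46 and 0.73. The 4 probe sets over the low limit thus spanned 1.01 in log2 ratio, where the median span was 0.60 over the 330 genes with 4 such probe sets and 16.1% of them spanned more. The mean over all 7 probe sets of Egfr was -0.17. The position of each probe set within the transcript was not used here. By the naming convention of the array, the suffix _a_at of the flat one marks probes shared by alternative transcripts of 1 gene.

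The promoter window of Egfr is shown because Egfr was the member that reached 500 with a lower signal in the knock out. It was taken from RefSeq on GRCm38.p6, from 250 bases before to 50 bases after the annotated start, at chr11:16751953-16752252 on the plus strand. Capitals mark matches to 6 motifs searched on both strands, namely the TATA box (TATAAA), the GC box (GGGCGG), the CRE (TGACGTCA), the AP-1 site (TGANTCA), the CCAAT box (CCAAT) and a TCC repeat (TCCTCC).
Egfr promoter: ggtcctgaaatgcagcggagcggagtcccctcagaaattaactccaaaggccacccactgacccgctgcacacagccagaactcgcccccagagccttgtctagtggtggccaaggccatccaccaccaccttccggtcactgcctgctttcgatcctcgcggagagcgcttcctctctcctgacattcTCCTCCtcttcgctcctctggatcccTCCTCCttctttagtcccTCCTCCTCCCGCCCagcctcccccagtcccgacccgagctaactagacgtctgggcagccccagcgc
The window held 4 matches to the TCC repeat and 1 to the GC box, of which the last 2 TCC matches overlap each other and the last of them also overlaps the GC box. It held none of the other motifs. Over 32851 promoter windows of this length, 34.5% held the TCC repeat, 35.7% the GC box, 13.6% the TATA box, 1.79% the CRE, 7.81% the AP-1 site and 37.4% the CCAAT box. A match describes the letters only and is not a measured binding site.

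Erbb2, the gene of the ligandless partner receptor, read 273 in wild type MEFs and 292 in the knock out on its only probe set, 1424919_at (log2 ratio 0.10, and -0.01 after median centring). This was a ratio of 1.07 as deposited, and the log2 ratio was -0.29 with spike-in scaling. Erbb3, the gene of the receptor for which Ebp1 is named, was under 100 on both arrays on both probe sets (47.8 and 56.6 on 1434606_at, and 4.65 and 13.7 on 1452482_at). At such signals no fold is given, and Erbb3 was not measured above the low limit in either culture. The fourth receptor gene of the family, Erbb4, and named for its place in it, was under 100 as well (3.36 and 2.69).

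Errfi1 encodes MIG6, an inhibitor that binds the kinase domain of EGFR and is itself induced by EGF signaling. Its brightest probe set, 1416129_at, read 587 in wild type MEFs and 736 in the knock out (log2 ratio 0.33). The dimmer one, 1419816_s_at, read 88.7 and 288, at least 2.88-fold higher with the low signal set to 100. Both were higher in knock out MEFs as deposited, but the brightest turned to -0.06 with spike-in scaling, and the suffix _s_at marks probes that can match more than 1 transcript. The mean of both log2 ratios was 1.01, with the wild type signal of 88.7 left as deposited and not raised to 100.

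RefSeq lists a pair of start sites for Errfi1, and the promoter window with motif matches is shown beside that of Egfr, from chr4:150854820-150855119 on the plus strand. Capitals mark the same motifs.
Errfi1 promoter: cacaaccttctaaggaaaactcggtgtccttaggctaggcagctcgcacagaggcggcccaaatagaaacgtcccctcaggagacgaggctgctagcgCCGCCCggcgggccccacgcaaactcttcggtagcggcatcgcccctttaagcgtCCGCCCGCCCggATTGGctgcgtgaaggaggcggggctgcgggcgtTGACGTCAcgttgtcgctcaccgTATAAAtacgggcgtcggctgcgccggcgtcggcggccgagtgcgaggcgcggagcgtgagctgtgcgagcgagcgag
It held 1 TATA box at position -28 from the start, 1 CRE at -51, 1 CCAAT box at -85 and 3 GC boxes, of which 2 overlap, while AP-1 and TCC repeat matches were lacking. The window at the other start site held none of the 6 motifs. The promoter table held 6 of the 10 members, with no entry for Ereg, Erbb3, Hbegf and Nrg1.

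**Figure D2:**
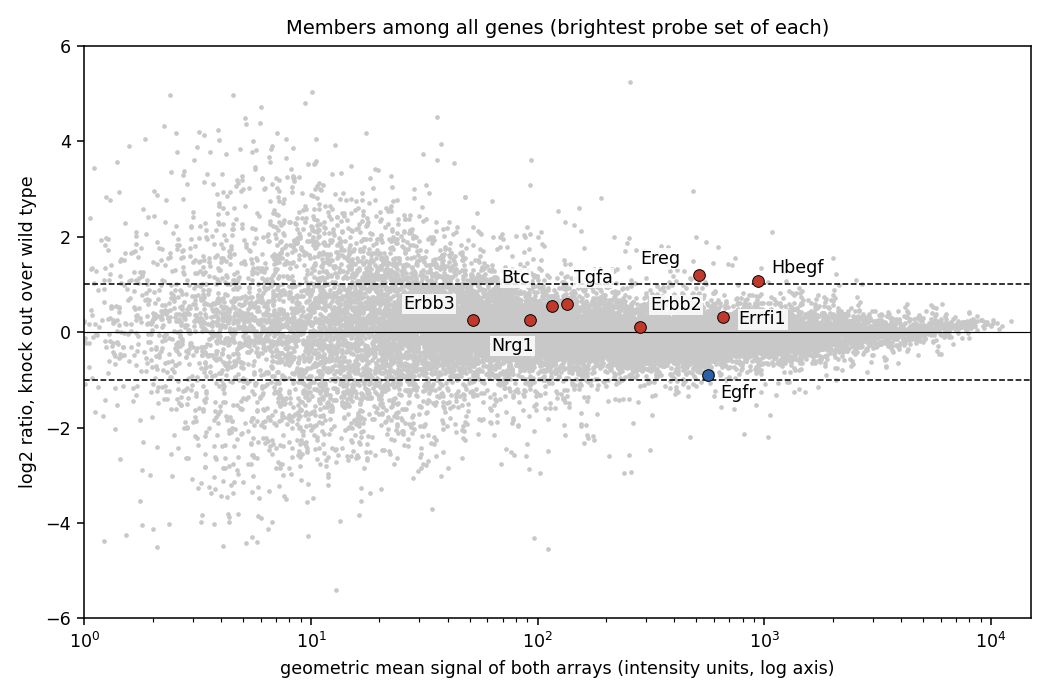
Log2 ratio (knock out over wild type) against the geometric mean signal of both arrays (log axis, intensity units) for the brightest probe set of each of 18193 genes (grey, 42 lie outside the axes), with the 9 measured members in red (higher) or blue (lower). Dashed lines mark 2-fold, beyond which lie Ereg and Hbegf, while the cloud widens towards low signals, where Erbb3, Nrg1, Btc and Tgfa lie.

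The 4 members that reached 500 all had a geometric mean signal between 500 and 1000. In this range the log2 ratios of 2336 genes had a standard deviation across genes of 0.33, with 0.599% over 2-fold higher and 0.685% over 2-fold lower. Below a mean signal of 100, where Erbb3 and Nrg1 lie, it was 1.06 over 8126 genes, and 14.9% were over 2-fold higher. Between 100 and 200, where Tgfa and Btc lie, it was 0.54. The spread was thus wider at the signals of Tgfa, Btc and Nrg1 than at those of Hbegf, Ereg and Egfr. These spreads are across genes on 1 pair of arrays and do not stand in for replicates.

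Median centring and spike-in scaling shift all members by the same amount, which quantile normalization and loess do not. Hbegf had log2 ratios from 0.68 (spike-in scaling) to 1.10 (quantile normalization), and Ereg from 0.80 (spike-in scaling) to 1.23 (loess), so both were higher under the 5 scalings. Egfr was lower under the 5 scalings on its brightest probe set, from -1.28 (spike-in scaling) to -0.85 (loess). The shifts by median centring (-0.11) and spike-in scaling (-0.39) are downward, so neither could turn Egfr higher. Only Ereg was over 2-fold higher after median centring, where Hbegf was 0.96 and Egfr -1.00, and with spike-in scaling no member was over 2-fold higher and Egfr was over 2-fold lower. The difference between ligand and receptor does not move when an array is multiplied by a factor, so its steadiness under such scaling is no check. The log2 ratio of Hbegf lay 1.96 above that of Egfr and that of Ereg 2.08 above it on the brightest probe sets, and 1.29 and 1.37 with the mean over all probe sets of each gene. The genes compared were chosen with results known. The size of the difference depends on the Egfr probe set, as 1460420_a_at was flat (0.00).

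**Figure D3:**
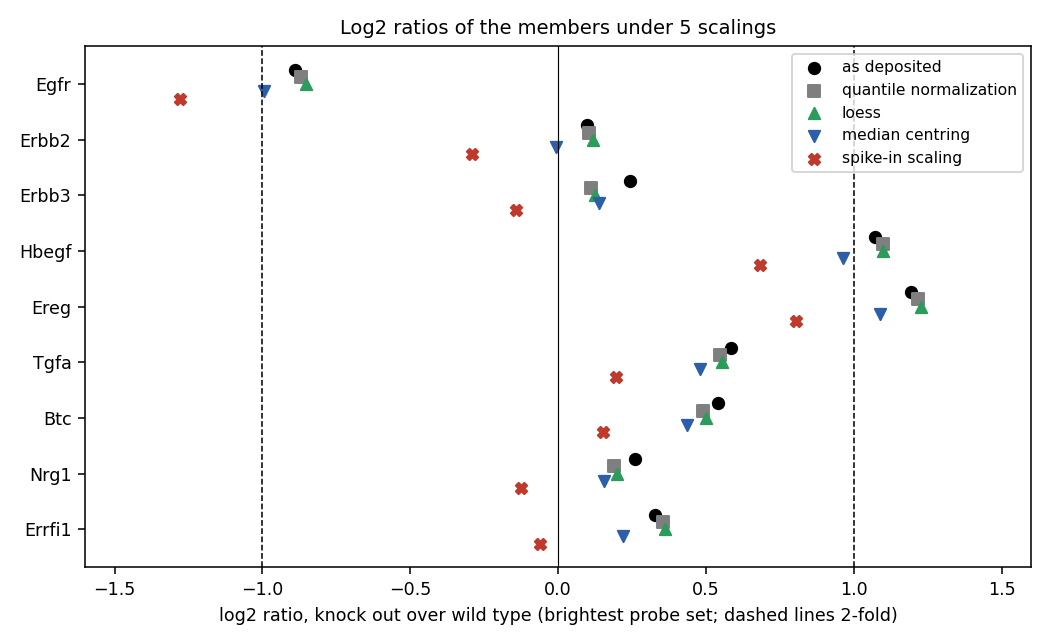
Log2 ratio (knock out over wild type) for the brightest probe set of the 9 measured members under the deposited scaling and 4 others (symbols), with dashed lines at 2-fold. Hbegf, Ereg, Tgfa and Btc stay to the right of 0 and Egfr to the left under all 5, while Erbb2, Erbb3, Nrg1 and Errfi1 cross to the left with spike-in scaling (Erbb2 with median centring too).

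The rest of the pathway was described through lists of its genes, taking the brightest probe set of each gene that reached 500. The median log2 ratio over all 5014 such genes was -0.05, with 42.2% of them higher in knock out MEFs. Of these genes 0.758% were over 2-fold higher and 1.06% over 2-fold lower. A short list with none over 2-fold apart is therefore near the share over all genes. The 4 members had a median of 0.70, given as a description since they were chosen with results known. Of 6 further ligand and receptor genes (Egf, Epgn, Nrg2, Nrg3, Nrg4 and Erbb4), none reached 500 and 5 were under 100 on both arrays. The brightest were Nrg2, a neuregulin gene (under 100 and 123, at least 1.23-fold higher), and Egf (72.2 and 93.6).

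Of 11 genes of ligand shedding, 9 reached 500, 3 of them higher and 6 lower, with a median of -0.21 and none over 2-fold apart. Adam9, the gene of a metalloprotease, read 3358 in wild type MEFs and 3204 in the knock out (-0.07). Timp3, the gene of an inhibitor of metalloproteases, was 2021 and 2890 (0.52), and its other probe sets were higher too, from 0.48 to 1.33. Adam17 and Adam10, the genes of the main sheddases of these ligands, are named after their values were seen. Adam17 was 638 and 415 (-0.62), with 0.13 and 0.35 on its other probe sets, and Adam10 was 2914 and 1670 (-0.80), with 1.03 on the next brightest one. The brightest probe sets of both were lower and the dimmer ones higher.

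Of 6 genes of ligand presentation all reached 500, 3 higher and 3 lower, with a median of 0.06, or -0.05 after median centring and -0.33 with spike-in scaling. The brightest were Cd44, the gene of a surface receptor that can carry heparan sulfate (3344 and 3704, 0.15), and Sdc1, the gene of syndecan 1 (1837 and 1826, -0.01). Other Cd44 probe sets gave -0.20 (3128 and 2715) and 1.22 (297 and 691), and the last was under 100 on both arrays. Those of Sdc1 gave 0.13, 0.11 and 1.52, the last of them from 155 and 444. The brightest probe sets of both genes were thus nearly flat, while a dimmer one of each was over 2-fold higher. Cd9, the gene of a tetraspanin that associates with membrane HB-EGF and named after its values were seen, was 961 and 1266 (0.40).

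Of 21 genes that restrain or sort the receptor, 14 reached 500, 5 higher and 9 lower, with a median of -0.04 and none over 2-fold apart. With the mean over all probe sets of each gene the median was 0.04. The brightest were Nedd4, a ubiquitin ligase gene (4667 and 4611, -0.02), and Rab7, a gene of late endosome traffic (3356 and 3315, -0.02). The largest difference in this list was that of Rnf41, the gene of the ubiquitin ligase Nrdp1 that targets ErbB3, named after its values were seen (841 and 596, -0.50). Its other probe sets gave 0.39, -0.41 and -0.58, the last of them under 100 on both arrays.

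In the adaptors and the Ras-ERK pathway, 16 of 21 listed genes had a probe set named here and 10 reached 500, 3 higher and 7 lower, with a median of -0.07. Ptpn11, the gene of the phosphatase SHP2, was 2225 and 2167 (-0.04), and Map2k1, the gene of the ERK kinase MEK1, was 1535 and 1514 (-0.02). In the PI3K-Akt pathway, 10 of 12 listed genes had a probe set named here and 9 reached 500, 2 higher and 7 lower, with a median of -0.25. Akt1 was 2173 and 1831 (-0.25) and Akt2 762 and 737 (-0.05), both genes of the kinase Akt. Other Akt1 probe sets gave 0.57 (403 and 598) and -0.17, and the last was under 100 on both arrays. No gene of either list was over 2-fold apart. With the mean over all probe sets of each gene, the medians were 0.22 (Ras-ERK) and 0.03 (PI3K-Akt). The sign of both medians thus depends on the probe sets used.

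Genes that EGF induces early were the list with differences over 2-fold, with 2 higher and 0 lower at this minimum. Over all genes at this minimum 0.758% were over 2-fold higher. The list was chosen with earlier results known, so this is a description. Of 18 genes 8 reached 500, 6 higher and 2 lower, with a median of 0.59. Fosl1, the gene of the AP-1 subunit FRA1, was 315 and 695 (1.14), and Phlda1, a growth factor induced gene, was 862 and 1805 (1.07). The brightest were Egr1, an immediate early transcription factor gene (3370.4 and 3121, -0.11), and Ier3, an immediate early gene (1142 and 1596, 0.48). With a minimum of 100 the list held 17 genes, 8 higher and 9 lower, with a median of -0.03, so its position above the other lists depends on the minimum. Fosl1, like Ereg, passed the minimum of 500 on the knock out array only.

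**Figure D4:**
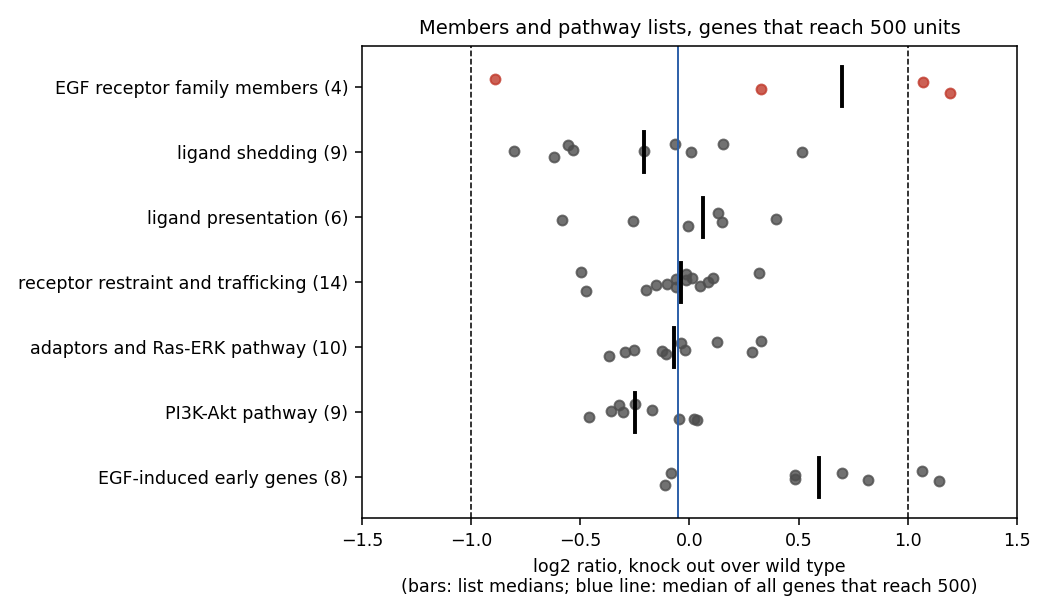
Log2 ratios (knock out over wild type) of genes that reached 500 on at least 1 array (points, with their number in parentheses), for the members and 6 pathway lists, with list medians as black bars and the median of all 5014 genes (-0.05) as a blue line. The members spread from -0.89 to 1.19, and the early genes of EGF have a median of 0.59 at this minimum (-0.03 at a minimum of 100).

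Markers of other cells of an embryo culture were set beside these values, since epithelium also expresses the family. Of 6 epithelial markers, Epcam read 174 in wild type MEFs and 1350.5 in the knock out on a probe set with the suffix _x_at, which marks probes that can match unrelated transcripts. Its other probe set read 5.81 and 4.07, under 100 on both arrays and not higher in the knock out. The markers Krt8 (73.5 and 91.9), Krt18 (89.4 and 99.7) and Cdh1 (11.5 and 19.5, named after its values were seen) were under 100 on both arrays. Krt19 (88.0 and 197) and Cldn4 (36.2 and 121), named after their values were seen, were at least 1.97-fold and 1.21-fold higher. The summed signal of the list came to 472 for wild type MEFs and 1880.1 for the knock out, or 299 and 529.6 without Epcam. Of the Schwann cell and glial markers, Sox10 was 148 on both arrays and the list summed to 182 and 189. The part of other cell types in the values of Hbegf, Ereg and Egfr was not tested.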

How the data were processed

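The authors hybridized biotin-labelled cRNA from 1 RNA sample per genotype, and the deposited values are linear signal intensities per probe set, which the authors made with MAS5 (Microarray Suite of Affymetrix, per the submitters' processing notes) from perfect-match minus mismatch probes and scaled to a constant target. The identifiers of the probe sets belong to a mouse array, whereas the methods name a human one. The authors' p-values and detection calls were not used here.

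After 64 control probe sets were left out, 45037 probe sets remained, of which 34945 had 1 gene symbol, 932 several and 9160 were unnamed here. Symbols were updated through Entrez identifiers, which were found for 34741, in the RefSeq annotation of GRCm38.p6. The log2 ratio of the knock out over the wild type signal was computed per probe set. Each gene was represented by its brightest probe set (highest mean log2 signal). As in the study's methods, a minimum of 500 and a 2-fold ratio were used, and the minimum had to be met on at least 1 array. A fold against a signal under 100 is a bound with that signal set to 100. With 1 array per genotype no test was run, and the number of arrays limits the precision.

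The members and lists were chosen with earlier results of these data known. The genes named are all members, Pa2g4, defining cell markers and, of each pathway list, genes over 2-fold apart (at most 4) and the 2 brightest. Any other gene is said to be named after its values were seen or for its position. Of 10 members, 9 had a probe set. Alternatives tried were spike-in scaling, median centring, loess (fraction 0.3), quantile normalization, signals raised to 100, 50 added to each signal, the mean over all probe sets, no suffixed probe sets, other minimum signals and fold thresholds of 1.5 and 3. Median centring, quantile normalization and loess were tested on simulated data with planted differences, and the other steps were not. Markers of endothelium, blood, nerve and muscle were also set out, and of these Map2 (839.8 and 1059) and Acta1 (486 and 699) reached 500. Scripts ran in Python 3.11.15 with pandas 2.3.3, numpy 2.4.6, matplotlib 3.10.9 and statsmodels 0.14.6.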

Additional observations from a re-analysis of the deposited data

How the results depend on the processing

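A count was taken as moved when it was not within 1.5 times the first one, and a log2 ratio when it differed by over 1.5-fold. The 2 members over 2-fold apart (Hbegf and Ereg) became 1 after median centring (Ereg), 1 with spike-in scaling (Egfr, lower), 1 with at least 500 on both arrays (Hbegf) and 0 at a threshold of 3. They were 3 with the mean over all probe sets (with Errfi1) and 3 at a threshold of 1.5 (with Egfr), and the same 2 under the other 7 alternatives. The 91 genes over 2-fold apart (38 higher, 53 lower) were 237 (17 and 220) with spike-ins, 371 (167 and 204) with a minimum of 100, 23 (10 and 13) with at least 500 on both arrays, 2354 (1307 and 1047) without a minimum, 406 (150 and 256) at a threshold of 1.5 and 24 (10 and 14) at a threshold of 3, and from 77 to 135 under the others. The split was 28 higher and 70 lower after median centring, 95 and 40 with the mean over all probe sets and 41 and 39 without suffixed ones, so higher genes outnumbered lower ones under the last 2 and without a minimum, and under no scaling tried. Of 72 log2 ratios of members under the alternatives 4 moved, all with the mean over all probe sets (Egfr -0.17, Erbb3 0.90, Btc 1.98 and Errfi1 1.01), where dim probe sets enter. The sign changed 5 times, under spike-in scaling for 4 (Erbb2, Erbb3, Nrg1 and Errfi1) and after median centring for 1 (Erbb2), all from log2 ratios within 2-fold, and raising low signals to 100 set Erbb3 to 0. Of 66 list medians 6 changed sign and 1 moved, that of the early genes at a minimum of 100 (-0.03). Other minimums and thresholds alter the counts by construction, and otherwise the cause was not tested. Signals under 100 made up 57.9% of the wild type array and 57.1% of the knock out array, which limits the ratios of dim members. No paired analysis was possible because each genotype has a single array.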
